A study of Mus musculus with 4 samples.

Results

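The arrays of 2 mouse embryonic fibroblast (MEF) preparations that the labels call wild type were compared with each other. The array DKO WT holds RNA of CycG1+/+ CycG2+/+ cells, the control of the double knockout, and the array labelled G2KO WT holds RNA of CycG2+/+ cells, the control of the CycG2 knockout. Of 39429 probes on the array, the comparison took the 26852 that lay off the X and Y chromosomes and were well above background on at least 1 of both arrays. A ratio could be given for 26380 of them, which stand for 21265 genes. For the other 472, the DKO WT array was dim and its bound exceeded the signal on the other array.

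The study crossed mice lacking cyclin G1 (Ccng1) or cyclin G2 (Ccng2) and prepared MEFs of G2KO (CycG2-/-), DKO (CycG1-/- CycG2-/-) and wild-type genotype. All 4 preparations are C57BL/6J according to the labels and were harvested in logarithmic growth without a damaging agent. Each was hybridised to 1 single-colour array, and by the barcodes in the headers all 4 arrays shared 1 slide. The labels give neither the passage nor the number of embryos behind a preparation. With 1 array a side, replicates that could check a ratio are missing and no test was made. Genotype, embryo, culture and array cannot be told apart.

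MEFs are a mixed population of mesenchymal cells that grow out of a minced embryo. They secrete collagens, elastic fibre proteins and proteoglycans, and they keep transcription factors of the body region they came from. Early passages divide under restraint of the CDK inhibitors p16 (Cdkn2a), p15 (Cdkn2b) and p21 (Cdkn1a), and of p19Arf, also encoded by Cdkn2a.

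The labels of the G2KO comparison were in doubt before any gene was compared. Xist, the X inactivation RNA, passed the background flag on 1 of the 4 arrays, that labelled G2KO WT, and the Y-linked genes Ddx3y and Eif2s3y had the opposite pattern, although the study's text takes its G2KO MEFs to be of female origin and lists En2, Foxa2, Sox2 and Sox6 as genes higher in G2KO. Here, these 4 genes were brighter on the array labelled G2KO WT than on the array labelled G2KO. The study also lists Kcnab1 and Zfp536 as higher and Aspn, Limch1, Efemp1, Pdgfra, Cdkn2b, Sfrp2 and Slc1a3 as lower in G2KO. Kcnab1 and Zfp536 were brighter, and the others dimmer, on the array labelled G2KO WT than on the array labelled G2KO. If the labels were exchanged, the ratios below compare a wild type with a CycG2 knockout. Whether they were exchanged was not tested. The arrays are therefore named by their labels throughout, and counts of the main lists are also given with the array labelled G2KO in the place of its labelled control. Levels below are multiples of the array's own 75th percentile, and a log2 ratio is DKO WT over the array labelled G2KO WT. Where a gene was dim on 1 array, the ratio is a lower bound ("at least"), taken against the higher of its own signal there and the lowest signal well above background, which was 0.0102 on DKO WT and 0.00716 on the array labelled G2KO WT.

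Ccng1 (chromosome 11 of mm9, probe 40562427 to 40562486) had a level of 1.66 on DKO WT, 9.45 on the array labelled G2KO WT and 1.98 on the array labelled G2KO, and was dim on the DKO array. Its log2 ratio between the wild-type arrays was -2.51. Ccng2 (chromosome 5, 93705131 to 93705190) had a level of 0.0806 on DKO WT, 0.104 on the array labelled G2KO WT, 0.091 on the array labelled G2KO and 0.0619 on the DKO array. The Ccng2 probe thus stood at a similar level on all 4 arrays. It neither told the labels apart nor marked the labelled CycG2-/- genotype of the DKO array, so it does not show whether Ccng2 RNA was lost.

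Between the wild-type arrays, 1888 probes differed at least 4-fold, which is 7.16% of those with a ratio. Of these, 1190 were brighter on DKO WT and 698 on the array labelled G2KO WT, and for 640 the ratio is a lower bound. The split was 1035 to 871 with scaling to the median and 1472 to 549 without scaling. Over 23703 probes measured on both arrays, the log2 ratio had a median of -0.06 and an SD of 1.03, and 81.1% lay within 2-fold. Spots of the same probe within an array had a median SD of 0.058 on DKO WT and 0.093 on the array labelled G2KO WT. Scatter within an array leaves out labelling, hybridisation and culture, so it does not give the noise of a ratio between arrays. Differences of at least 100-fold were seen for 71 probes in favour of DKO WT and 11 in favour of the other array. Counted as genes, 972 (4.57%) were at least 4-fold higher and 591 (2.78%) at least 4-fold lower on DKO WT, and these shares are the background for each gene list below. With the array labelled G2KO in place of its labelled control, 555 probes differed at least 4-fold, 1.41% of genes were at least 4-fold higher and 0.894% lower on DKO WT, and the SD was 0.57.

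**Figure D1:**
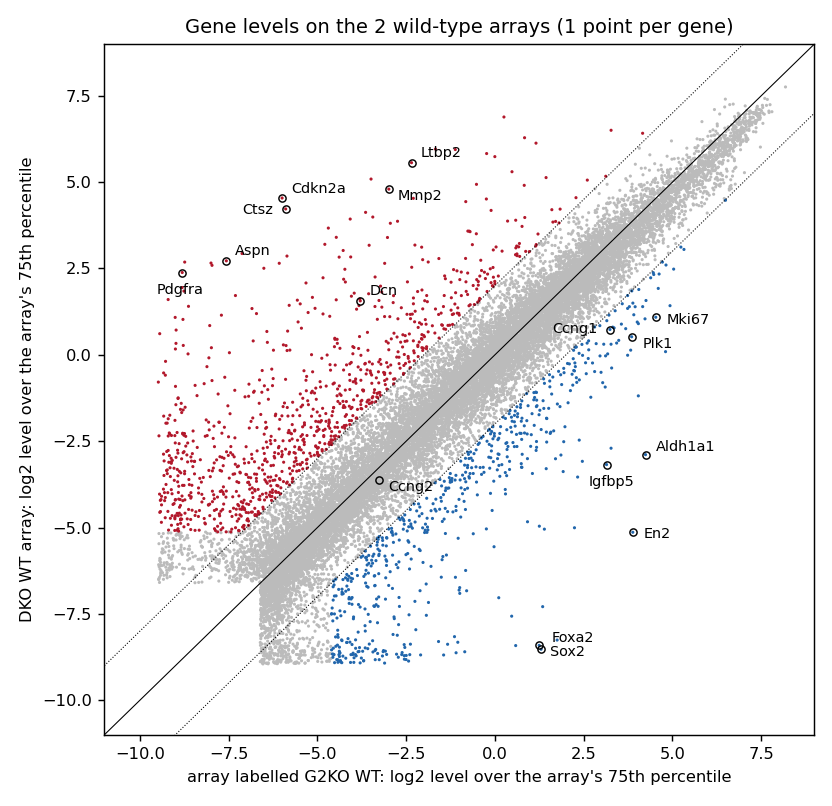
Each point is a gene, placed by its log2 level on the array labelled G2KO WT (horizontal axis) and on DKO WT (vertical axis), both relative to the array's 75th percentile; red genes were at least 4-fold higher and blue genes at least 4-fold lower on DKO WT, the solid line marks equal levels and the dotted lines 4-fold. Grey points outside the dotted lines are dim on 1 array and have a lower bound under 4-fold. Cdkn2a, Ctsz, Aspn and Pdgfra lie far to the upper left, En2, Foxa2 and Sox2 far to the lower right, and Ccng2 near the line.

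Genes of mitosis were lower on DKO WT throughout the list. All 20 genes of this list were at least 4-fold lower on DKO WT, with log2 ratios from -3.86 (Nusap1) to the 4-fold threshold (Cdk1) and a median of -3.18, beside a median of -0.08 over all genes. The median level of the list was 1.17 on DKO WT, 8.62 on the array labelled G2KO WT, 5.26 on the array labelled G2KO and 1.36 on the DKO array. Mki67, a marker of dividing cells, had levels of 2.13, 23.1, 10.3 and 2.66 in that order. Plk1, the kinase that drives mitotic entry and spindle assembly, had levels of 1.44, 14.4, 9.57 and 1.55. For both genes the DKO WT and DKO arrays were low and the arrays of the G2KO comparison were high. Ccnb1, the mitotic cyclin B1, had a log2 ratio of -3.50. Bub1, a spindle checkpoint kinase, had one of -3.83. Cdc20, the activator of the anaphase-promoting complex, had one of -2.77. Cdk1, the kinase these cyclins activate, was 4.01-fold lower on DKO WT, with levels of 1.75, 7.01, 3.75 and 1.81. Without scaling between the arrays, 17 of the 20 were past 4-fold, and all 20 kept their direction. With the array labelled G2KO in place of its labelled control, 13 of 20 were at least 4-fold lower on DKO WT, with a median of -2.34.

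The promoters of 3 of these genes are shown since CCAAT boxes and the letters TTTGAA, the core of the cell cycle genes homology region, are textbook features of genes switched on before mitosis. The windows run from 250 bases before to 50 bases after the RefSeq start (GRCm38.p6), 5′ to 3′ on the gene's strand, with CCAAT and TTTGAA on either strand in capitals: Plk1 at chr7:122159185-122159484 on the plus strand, Ccnb2 at chr9:70421505-70421804 and Cdk1 at chr10:69352863-69353162 on the minus strand.
Plk1: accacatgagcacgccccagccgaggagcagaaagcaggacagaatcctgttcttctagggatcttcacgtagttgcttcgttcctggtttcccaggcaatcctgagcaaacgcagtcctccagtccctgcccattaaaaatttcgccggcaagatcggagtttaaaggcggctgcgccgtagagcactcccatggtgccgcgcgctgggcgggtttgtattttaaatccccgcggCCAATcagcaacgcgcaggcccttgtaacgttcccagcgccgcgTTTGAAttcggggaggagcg
Ccnb2: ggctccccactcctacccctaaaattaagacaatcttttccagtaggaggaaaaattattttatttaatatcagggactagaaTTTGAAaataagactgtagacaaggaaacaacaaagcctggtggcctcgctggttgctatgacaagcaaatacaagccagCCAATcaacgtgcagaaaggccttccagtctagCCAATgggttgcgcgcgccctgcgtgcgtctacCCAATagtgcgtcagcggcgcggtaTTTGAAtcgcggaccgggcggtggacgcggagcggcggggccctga
Cdk1: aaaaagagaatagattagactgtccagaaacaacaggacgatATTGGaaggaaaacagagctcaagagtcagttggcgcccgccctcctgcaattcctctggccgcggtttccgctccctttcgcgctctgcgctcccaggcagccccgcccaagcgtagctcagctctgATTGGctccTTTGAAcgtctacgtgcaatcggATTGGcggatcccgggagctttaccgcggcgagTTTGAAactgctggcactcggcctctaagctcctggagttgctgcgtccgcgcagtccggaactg
A promoter sequence was found for 16 of the 20 mitosis genes. Of these windows, 14 held CCAAT, 11 held TTTGAA and 11 held both. Among all 27025 promoter windows of the table, 37.9% held CCAAT, 18.1% held TTTGAA and 7.12% held both. Both sets of letters were searched on both strands, may share bases where they adjoin, and were chosen after the ratios were known. A match describes the letters and not a binding site.

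Genes of DNA replication and of the G1/S transition differed less. Of 21 genes, 20 had a log2 ratio below 0 and 1, the thymidine kinase Tk1, was at least 4-fold lower on DKO WT, with levels of 2.79 on DKO WT and 12.0 on the array labelled G2KO WT. The median of the list was -0.85. When set against the array labelled G2KO, 0 of the 21 were past 4-fold. Replication-dependent histone genes, a list added after their ratios were seen, were at least 4-fold lower on DKO WT for 13 of 46 genes and higher for 0, with a median of -1.75. In the comparison with the array labelled G2KO, 2 of 45 were lower and 0 higher. Among them, the linker histone genes Hist1h1a and Hist1h1b had log2 ratios of -3.36 and -3.15. The study's methods state that cDNA was primed with oligo-dT, which anneals to poly(A) tails. How fully RNA of the histone genes was captured in this way was not tested.

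The CDK inhibitors moved apart from each other. Cdkn2a (chromosome 4 of mm9, probe 88920405 to 88920464) gave the largest measured ratio of all named genes, with levels of 23.3 on DKO WT, 0.0157 on the array labelled G2KO WT, 24.3 on the array labelled G2KO and 5.09 on the DKO array, and a log2 ratio of 10.53. Its other probe, at background on that labelled wild-type array, was at least 211-fold brighter on DKO WT. Both probes of Cdkn2b, the next gene, were dim on the array labelled G2KO WT as well. Its brighter probe had levels of 6.31 on DKO WT, 4.07 on the array labelled G2KO and 4.03 on the DKO array, and was at least 881-fold brighter on DKO WT than on the array labelled G2KO WT. The array labelled G2KO WT thus stood apart from the other 3 arrays for both genes. Cdkn1a, encoding p21, ran the other way, with levels of 0.572 on DKO WT, 8.20 on the array labelled G2KO WT, 0.643 on the array labelled G2KO and 5.00 on the DKO array. The imprinted gene Cdkn1c had a log2 ratio of 4.09, and Cdkn1b, Cdkn2c and Cdkn2d lay within 4-fold. Against the array labelled G2KO, 0 of the 7 CDK inhibitor genes were past 4-fold.

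Probes around Cdkn2a on chromosome 4 did not share its ratio. Mtap, which salvages methionine and lies 94.2 kb before the first Cdkn2a probe, had levels of 2.08 on DKO WT and 0.569 on the array labelled G2KO WT, a log2 ratio of 1.87. Gm12605, in between, had a log2 ratio of -0.49. Klhl9, a ubiquitin ligase adaptor 556 kb away beyond the interferon-alpha genes, had levels of 5.79 and 6.01. Dmrta1, a transcription factor gene 440 kb to the other side, was dim on the other 3 arrays and had a level of 0.555 on the array labelled G2KO WT, a difference from DKO WT of at least 54.2-fold. The array labelled G2KO WT was thus lowest of the 4 at the probes of Cdkn2a and Cdkn2b and, by less, at Mtap, and was not lowest at Gm12605, Klhl9 or Dmrta1. DNA was not measured.

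**Figure D2:**
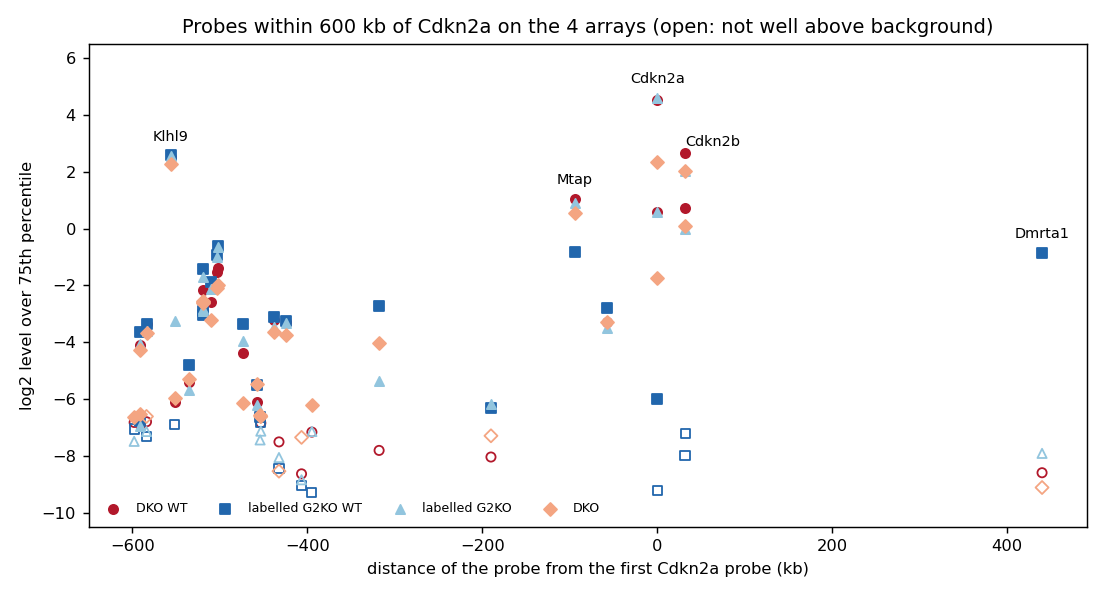
Log2 level over the array's 75th percentile (vertical axis) of every probe within 600 kb of the first Cdkn2a probe, by distance in kb (horizontal axis); marker shape and colour give the array, and open markers were not well above background. The 4 probes of Cdkn2a and Cdkn2b are high on 3 arrays and low on the array labelled G2KO WT, whereas Klhl9 is level on all 4.

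Targets of p53 tended to be lower on DKO WT. Of 22 genes, 20 had a log2 ratio below 0, 6 were at least 4-fold lower on DKO WT and 0 were higher, with a median of -1.06. Besides Cdkn1a and Ccng1, which are themselves on this list, these were Btg2, an antiproliferative gene, with a log2 ratio of -2.54, the pro-apoptotic Bax with -2.50, Perp with -2.27, and Gdf15, dim on DKO WT, with at least 4.93-fold. Perp had its highest level on the DKO array, at 35.0, beside 0.641 on DKO WT. With the array labelled G2KO in place of its labelled control, 0 of the list were past 4-fold either way. Among the D, G and I cyclins, Ccnd1, which drives G1 progression, had levels of 8.69 on DKO WT and 37.7 on the array labelled G2KO WT, a log2 ratio of -2.12, and Ccnd2, Ccnd3 and Ccni lay within 4-fold.

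The labelled cell type was checked on 14 fibroblast markers, all well above background on DKO WT. Vim, Fn1, Col1a1, Col1a2 and S100a4 had levels above 16 on all 4 arrays, and their log2 ratios lay between -0.37 and 0.91. In contrast, 8 of the 14 were at least 4-fold higher on DKO WT, with a median of 2.96. With normexp background correction 7 of the 14 were higher, with a median of 1.90. Of the 11 well above background on both arrays, 5 were higher, with a median of 1.21. Pdgfra, the receptor that marks embryonic mesenchyme, had a level of 5.22 on DKO WT and 1.75 on the array labelled G2KO, had one of 0.0296 on the DKO array, and was dim on the array labelled G2KO WT, at least 729-fold below DKO WT. Thy1, a surface glycoprotein of fibroblasts, had levels of 61.5 on DKO WT, 0.461 on the array labelled G2KO WT, 53.1 on the array labelled G2KO and 3.42 on the DKO array. Fap, a surface protease, was dim on the array labelled G2KO WT. The other 5 of these 8 were Postn, Dcn, Lum, Col3a1 and Fbln1, of which Lum was dim on the array labelled G2KO WT. The array labelled G2KO WT thus carried Vim, Fn1, Col1a1, Col1a2 and S100a4 within 2-fold of DKO WT and was lower in these 8. With the array labelled G2KO in place of its labelled control, 1 of the 14 was at least 4-fold higher and 0 lower on DKO WT, with a median of 0.37. In bulk RNA, fewer cells of a type and less RNA per cell cannot be told apart.

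Several lists of matrix genes were higher on DKO WT than on the array labelled G2KO WT. All 7 small leucine-rich proteoglycans that could be compared, proteins that bind collagen fibrils, were at least 4-fold higher on DKO WT, with a median log2 ratio of 6.06. Aspn had levels of 6.60 on DKO WT and 3.40 on the array labelled G2KO, and was dim on the array labelled G2KO WT, at least 921-fold below DKO WT, and on the DKO array. Ogn had levels of 23.1, 0.203, 3.92 and 1.59 on DKO WT, the array labelled G2KO WT, the array labelled G2KO and the DKO array. Dcn, the prototype of the family, had levels of 2.95, 0.0722, 0.757 and 49.0 in the same order, so that its highest level was on the DKO array. Podn had a log2 ratio of 6.06 and Fmod of 2.29, and Omd was 90.3-fold higher on DKO WT. With normexp background correction, 5 of the 7 were past 4-fold. When set against the array labelled G2KO, 3 of 7 were at least 4-fold higher on DKO WT, with a median of 1.96.

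Of 19 elastic fibre genes, 10 were at least 4-fold higher and 0 lower on DKO WT, with a median of 2.07. Efemp1, a fibulin, was dim on the array labelled G2KO WT and at least 898-fold brighter on DKO WT. Ltbp2, a latent TGF-beta binding protein of microfibrils, had levels of 47.3 on DKO WT, 0.196 on the array labelled G2KO WT, 30.3 on the array labelled G2KO and 8.05 on the DKO array. The fibrillin gene Fbn2 had a log2 ratio of 7.40, whereas Fbn1 had one of 1.88. The crosslinking enzyme gene Lox had a log2 ratio of 4.27. Once the array labelled G2KO replaced its labelled control, 1 of 19 was at least 4-fold higher, with a median of 0.48.

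Of 31 collagen genes, 12 were at least 4-fold higher and 0 lower on DKO WT, with a median of 1.42. Col10a1 and Col8a2 were dim on the array labelled G2KO WT, at least 539-fold and 309-fold below DKO WT. Col3a1, of the fibrils of soft tissue, had levels of 30.01 on DKO WT, 1.77 on the array labelled G2KO WT, 24.4 on the array labelled G2KO and 8.99 on the DKO array. The neighbours Col6a1 and Col6a2, which encode chains of beaded filaments, had log2 ratios of 3.23 and 4.29. Col18a1, whose product lies in basement membranes, had a log2 ratio of -1.81. In the comparison with the array labelled G2KO, 4 of 30 collagen genes were at least 4-fold higher and 0 lower on DKO WT, with a median of 0.47.

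Matrix proteases and their inhibitors were at least 4-fold higher on DKO WT for 8 of 24 genes and lower for 2, with a median of 0.86. Mmp2, which degrades basement membrane collagen, had levels of 27.8 on DKO WT, 0.126 on the array labelled G2KO WT, 18.7 on the array labelled G2KO and 14.3 on the DKO array. Mmp3, Mmp13 and Mmp9 were higher on DKO WT, with Mmp3 at a log2 ratio of 8.36 and Mmp13 at 7.10. Mmp9 was dim on the array labelled G2KO WT. Serpine2, a protease inhibitor, and Mmp23 were lower on DKO WT, with -3.62 and -3.29. With normexp background correction 5 of 24 were higher. Against the array labelled G2KO, 1 was higher and 0 lower.

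**Figure D3:**
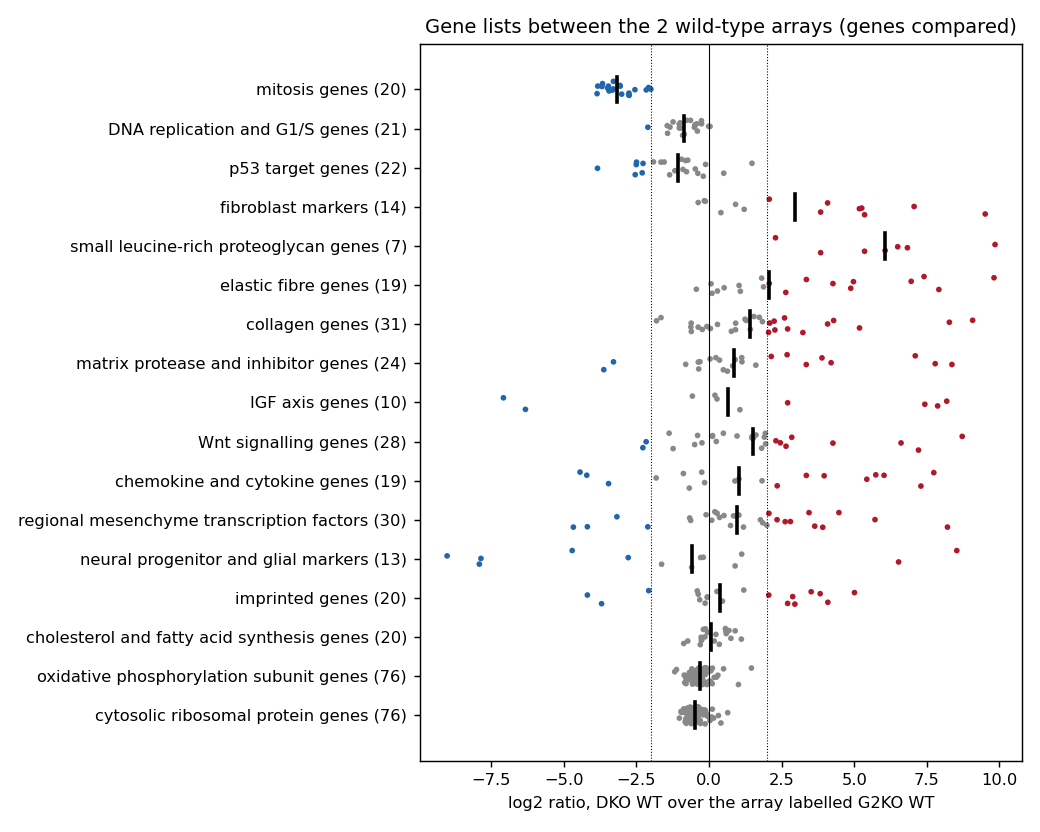
Each point is a gene of the list named on the left, with the number of genes compared in brackets, placed by its log2 ratio of DKO WT over the array labelled G2KO WT (horizontal axis); black bars are medians, dotted lines mark 4-fold, and red and blue points are past it. All 20 mitosis genes lie below -2, all 7 small leucine-rich proteoglycan genes lie above 2, and no ribosomal protein or oxidative phosphorylation gene is past either line.

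Growth factor systems showed members in opposite directions. Among the IGF-binding proteins, which hold insulin-like growth factors in the medium, Igfbp2, Igfbp4 and Igfbp6 were higher on DKO WT, and Igfbp3 and Igfbp5 were higher on the array labelled G2KO WT. Igfbp2 had levels of 10.6 on DKO WT, 0.0452 on the array labelled G2KO WT, 7.39 on the array labelled G2KO and 0.0885 on the DKO array. Igfbp5 had levels of 0.111, 8.84 and 0.471 on the first 3 of these arrays and was dim on the DKO array. Igfbp3 was dim on DKO WT, at least 135-fold below its level of 1.39 on the array labelled G2KO WT. Igfbp7 had a log2 ratio of 1.06. Igf1r, the receptor, and Igf1 had log2 ratios of -0.57 and 0.20, and the growth factor gene Igf2, at levels of 0.148 and 0.0228, had one of 2.71. In all, 4 of 10 IGF genes were at least 4-fold higher and 2 lower on DKO WT. When set against the array labelled G2KO, 0 were higher and 1 was lower.

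Of 28 Wnt pathway genes, 8 were at least 4-fold higher and 2 lower on DKO WT. The secreted inhibitor Sfrp2 had levels of 7.26 on DKO WT, 0.0173 on the array labelled G2KO WT, 0.67 on the array labelled G2KO and 0.0709 on the DKO array. The inhibitor Dkk2 had a log2 ratio of 6.61, and the R-spondins Rspo1 and Rspo2, which sharpen Wnt responses, were higher on DKO WT, with at least 19.2-fold and a log2 ratio of 7.21. The transcription factor gene Lef1 and the ligand Wnt4 were lower on DKO WT, with -2.28 and -2.17. Of 17 FGF genes, 4 were higher and 0 lower, among them the ligands Fgf7 with levels of 15.3 and 0.0593, Fgf10 with a log2 ratio of 5.22, and Fgf5, dim on the array labelled G2KO WT, with at least 131-fold. Of 23 TGF-beta and BMP genes, 4 were higher and 0 lower. Among the 4 were the ligands Bmp4 with a log2 ratio of 4.75, Tgfb3 with 3.69 and Bmp6, which was dim on the array labelled G2KO WT. With normexp background correction, 4 of 28 Wnt genes were higher and 1 lower. In the comparison with the array labelled G2KO, 2 of 29 Wnt genes, 0 of 17 FGF genes and 1 of 24 TGF-beta and BMP genes were at least 4-fold higher on DKO WT, and 0 of each were lower.

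Chemokine and cytokine genes were spread over the whole range, with 8 of 19 at least 4-fold higher and 3 lower on DKO WT. The neutrophil attractants Cxcl1 and Cxcl5 had levels of 1.12 and 1.53 on DKO WT and 1.66 and 8.09 on the array labelled G2KO, and were dim on the array labelled G2KO WT. Ccl2, which draws monocytes, had levels of 9.05 on DKO WT, 0.21 on the array labelled G2KO WT and 117 on the DKO array. Il1rl1, the IL-33 receptor, had levels of 53.4 and 0.999 on the wild-type arrays. Lif, Cxcl14 and Csf2 were lower on DKO WT, Lif with -4.44 and the other two dim there. Once the array labelled G2KO replaced its labelled control, the median of the list was -1.28. Of 17 genes, 0 were then at least 4-fold higher and 3 lower on DKO WT. Of 23 interferon-stimulated and antigen presentation genes, 6 were higher and 0 lower, with Ifit1 and Oasl2 dim on the array labelled G2KO WT. With normexp background correction 1 of the 23 was higher, and against the array labelled G2KO 4 of 22 were higher and 1 lower. Of 9 complement genes, 3 were higher and 0 lower, and so were 3 of 9 against the array labelled G2KO. Of 8 prostaglandin genes, 4 were higher and 0 lower, among them the cyclooxygenase gene Ptgs1 with levels of 14.0 and 0.13. With normexp background correction 2 of the 8 were higher, and against the array labelled G2KO 0 of 9 were past 4-fold.

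Transcription factors of embryonic position differed in both directions. Of 30 regional mesenchyme factors, 10 were at least 4-fold higher and 4 lower on DKO WT, with a median of 0.97. Alx1, a factor of head mesenchyme, had levels of 2.12 on DKO WT and 1.33 on the array labelled G2KO, and was dim on the array labelled G2KO WT, at least 296-fold below DKO WT, and on the DKO array. Shox2 had a log2 ratio of 5.71, Pax3 of 3.64, Twist2 of 3.44, and the distal-less genes Dlx5 and Dlx2 of 3.91 and 2.62. Lhx2, Gata6 and Foxf1a were dim on DKO WT, and Msx2 had a log2 ratio of -2.11. Once the array labelled G2KO replaced its labelled control, 0 of 30 were past 4-fold in either direction, with a median of 0.20. Of 11 Hox genes that could be compared, 1 was at least 4-fold lower and 0 higher on DKO WT. This was Hoxa3, dim on DKO WT, with a level of 0.0505 on the array labelled G2KO WT. The Hox call was lost with normexp background correction and against the array labelled G2KO.

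Among 13 markers of neural progenitors and glia, 5 were at least 4-fold lower and 2 at least 4-fold higher on DKO WT. En2, a homeobox factor of the midbrain and hindbrain, had levels of 0.0284 on DKO WT, 14.8 on the array labelled G2KO WT, 0.026 on the array labelled G2KO and 0.0424 on the DKO array. Sox2, a factor of neural and pluripotent progenitors, had a level of 2.37 on the array labelled G2KO WT, at least 231-fold above DKO WT, and was dim on the other 3 arrays. Foxa2, a factor of floor plate and endoderm, was dim on DKO WT and on the array labelled G2KO and had levels of 2.46 on the array labelled G2KO WT and 3.58 on the DKO array. Nes, encoding the filament protein nestin, had a log2 ratio of -4.71. In contrast, the glial glutamate transporter Slc1a3 and the receptor phosphatase Ptprz1 were higher on DKO WT, with at least 370-fold and a log2 ratio of 6.53. The list therefore held no common direction. Against the array labelled G2KO, 1 of 12 was at least 4-fold higher and 0 lower on DKO WT.

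**Figure D4:**
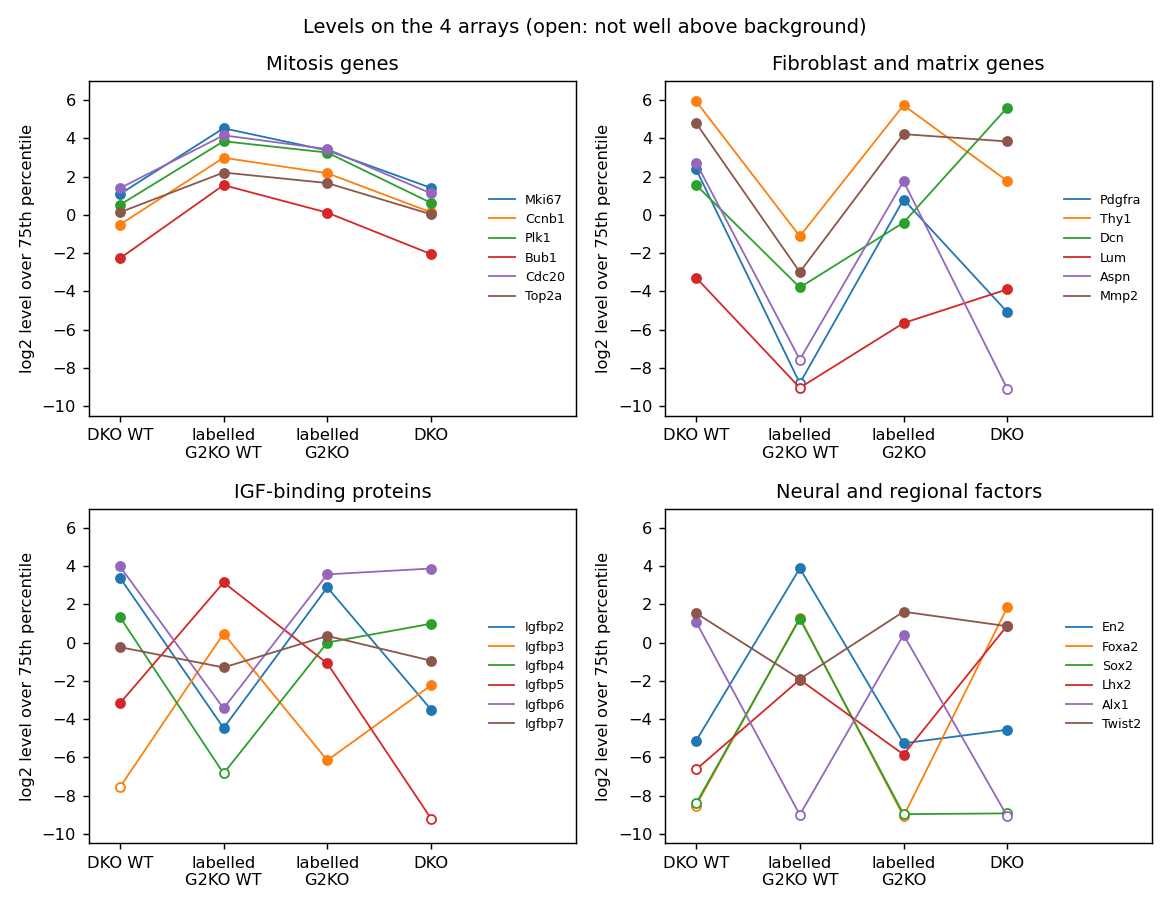
Log2 level over the array's 75th percentile (vertical axis) of 6 genes in each of 4 panels, on the 4 arrays (horizontal axis); lines join the values of a gene and have no order, and open circles were not well above background. The mitosis genes are low on DKO WT and DKO, whereas En2 and Sox2 peak on the array labelled G2KO WT. Igfbp2 and Igfbp5 run in opposite directions between the wild-type arrays, and both are low on DKO.

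Vitamin A handling and imprinted genes also split. Aldh1a1, which makes retinoic acid, had levels of 0.135 on DKO WT, 18.9 on the array labelled G2KO WT, 0.0531 on the array labelled G2KO and 16.9 on the DKO array. Cyp26b1, which degrades it, had levels of 2.63, 15.5 and 0.555 on the first 3 of these arrays. The retinal reductase gene Dhrs3 and the binding protein gene Crabp1 had log2 ratios of 7.07 and 3.31, so 4 of 17 retinoic acid genes were higher and 3 lower on DKO WT. Of 20 imprinted genes, 8 were at least 4-fold higher and 3 lower. Dlk1, a Delta-like surface protein of immature mesenchyme, had levels of 3.53 on DKO WT and 0.11 on the array labelled G2KO WT. Its levels were 0.639 on the array labelled G2KO and 0.0184 on the DKO array. Mest, Plagl1, Grb10 and Slc38a4 had log2 ratios between 2.88 and 3.83. Ndn and Snrpn, neighbours of the Prader-Willi region, were lower on DKO WT, with -4.19 and -3.70, and Zim1 was dim there. When set against the array labelled G2KO, 1 of 16 retinoic acid genes and 1 of 20 imprinted genes were higher and 0 lower.

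Markers of other cell types were counted to see whether a foreign cell type came with either array. Mesothelial markers were past 4-fold for 0 of 3 genes compared, endothelial markers for 0 of 8, and skeletal muscle markers for 0 of 2. Macrophage markers were higher on DKO WT for 2 of 8, namely Lyz1 with levels of 0.215 and 0.0307 and Lyz2, dim on the array labelled G2KO WT. Ptprc, which defines blood cells, had levels of 0.0368 and 0.0224. The others ranged in level from Itgam, with 22.2 and 11.0, to Cd68, dim on DKO WT and at 0.0155 on the array labelled G2KO WT. With normexp background correction 0 of the 8 macrophage markers were past 4-fold, and against the array labelled G2KO 2 were higher. Of 8 cartilage markers, Sox9 and Col11a1 were higher and Sox6 was lower, and of 6 bone markers Dlx5 was higher. Of 5 fat cell markers, Lpl and Fabp4 were higher on DKO WT. Of 8 epithelial markers, Dsp was higher and Krt7 lower, while Cdh1, dim on DKO WT, had a level of 0.013 on the array labelled G2KO WT. Of 9 smooth muscle contractile genes, Cnn1, encoding calponin, was lower on DKO WT, with a log2 ratio of -2.53, and 8 lay within 4-fold. Of 5 neuron markers, Stmn2, dim on the array labelled G2KO WT, was higher. The calls of Sox6 and Krt7 were also lost with normexp background correction. In the comparison with the array labelled G2KO, 1 of 3 mesothelial markers was lower, 1 of 8 endothelial and 1 of 6 cartilage markers were higher, and 0 bone, fat cell, epithelial, smooth muscle, skeletal muscle or neuron markers were past 4-fold. The part of other cell types in the differences was not tested.

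Housekeeping groups lay within 4-fold for the most part. Of 76 oxidative phosphorylation subunits and 76 cytosolic ribosomal proteins, 0 were past 4-fold either way, with median log2 ratios of -0.31 and -0.49. Most lay below 0, namely 63 and 68 of 76. The medians depended on scaling and were -0.16 and -0.10 with quantile normalization. For the array labelled G2KO the medians were -0.07 and 0.04, again with 0 past 4-fold. Of 20 cholesterol and fatty acid synthesis genes, 0 were past 4-fold, with a median of 0.06 that turned to -0.12 when the arrays were scaled to the median. Among 20 glycolysis and hypoxia genes, Egln3 was higher and Ankrd37 lower on DKO WT. Of 17 immediate early genes, Klf2 was higher and Egr1 lower. Of 29 glutathione and oxidative stress genes, 4 were higher and 1 lower, the latter being Mgst1, a membrane glutathione transferase, dim on DKO WT and there at least 248-fold below the other wild-type array. Cadherins were higher for 2 of 15 and lower for 2, and integrins higher for 1 of 18 and lower for 2. Against the array labelled G2KO, 0 of 29 glutathione genes and 0 of 20 glycolysis and hypoxia genes were past 4-fold. In that comparison 1 of 14 cadherins was higher, and 2 of 18 integrins and 2 of 16 immediate early genes were lower on DKO WT.

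Among the genes with the largest ratios, those outside these lists are given here. On the side of DKO WT, Ctsz, a lysosomal cathepsin (chromosome 2, 174253228 to 174253287), had levels of 18.7 on DKO WT, 0.0168 on the array labelled G2KO WT, 16.2 on the array labelled G2KO and 9.02 on the DKO array. The collagen receptor Ddr2 had a log2 ratio of 9.01, the heparin-binding growth factor Ptn of 8.58 and the lipocalin Apod of 7.77. Ifi27l1 had one of 7.99 and Sparcl1 one of 7.91. Pdpn, encoding the membrane protein podoplanin, was dim on the array labelled G2KO WT and at least 1064-fold brighter on DKO WT. Limch1, Ppbp, Sned1, Ebf3 and Lrrc17 were likewise dim on the array labelled G2KO WT, with bounds between 284-fold and 841-fold. On the other side, Psrc1, a microtubule protein, had a log2 ratio of -6.44, Kcnab1 of -5.97, Atp6v0e2 of -5.87 and Cd24a, a surface protein of immature cells, of -5.23. Fam132b, Nup210, Tmem171, Akr1c19, B3gnt5, Areg, Adra2a and Fstl3 had log2 ratios between -6.21 and -4.84. Amica1, Cadm1, Ccdc85a, Zfp536, Tnfsf9 and Pou3f3 and 4 transcripts known by clone names were dim on DKO WT, with bounds between 38.8-fold and 329-fold.

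Some of these genes lay side by side. In the order of 21107 genes on the autosomes of mm9, 20 runs of at least 3 neighbours were past 4-fold in the same direction. Of these runs, 13 were higher and 7 lower on DKO WT, and together they held 63 genes. Transcripts known only by clone, transcript or probe names counted as genes. Some runs, such as those of Dcn and Lum and of Col6a2 and Col6a1, reached 3 only with such an entry. How many runs the shares of all genes past 4-fold, 4.57% higher and 2.78% lower, would give by themselves was not tested. Runs of related genes were the proteoglycans Aspn, Omd and Ogn on chromosome 13 (49662479 to 49719608), Dcn and Lum on chromosome 10, the metalloproteinases Mmp1b, Mmp3 and Mmp1a on chromosome 9, Col6a2 and Col6a1 on chromosome 10, and the imprinted neighbours Begain, Dlk1 and Meg3 on chromosome 12. Thy1 stood beside Usp2 and C1qtnf5 on chromosome 9. Gatm, Spata5l1 and Slc30a4 formed a run of 4 on chromosome 2 with a transcript between them, and Pcdhb18 to Pcdhb21 another. Runs lower on DKO WT included 3 of histone genes, the EGF-family ligands Areg and Btc with Parm1 on chromosome 5, the transcripts around Pou3f3 on chromosome 1 and around Foxf1a on chromosome 8. Of 14 protocadherin beta genes, a list added after their ratios were seen, 6 were at least 4-fold higher and 0 lower, and 1 of 13 was higher against the array labelled G2KO. Whole autosomes had median log2 ratios between -0.37 (chromosome 6) and 0.15 (chromosome 5). The share of probes past 4-fold ran from 4.56% on chromosome 17 to 9.29% on chromosome 1.

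Both other arrays were read at the 1888 divergent probes. The array labelled G2KO was within 2-fold of DKO WT for 1041 of them (55.1%) and within 2-fold of the array labelled G2KO WT for 402 (21.3%), while for all probes with a ratio these shares were 91.9% and 83.7%. The DKO array was within 2-fold of DKO WT for 732 (38.8%) and of the array labelled G2KO WT for 558 (29.6%), beside 81.1% and 75.1% of all probes with a ratio. For 598 probes (31.7%) it was near neither, as it was for 2833 of all 26380. Of the 698 probes lower on DKO WT, the DKO array was near DKO WT for 394 and near the array labelled G2KO WT for 110. Of the 1190 probes higher on DKO WT, these counts were 338 and 448. The DKO array was thus near DKO WT for 56.4% of the probes lower there and for 28.4% of those higher there. For this reading a dim probe was raised to at least the lowest signal well above background, so probes dim on both arrays can count as near. Of the 698 probes lower on DKO WT, 206 were dim there. Of the 1190 higher, 434 were dim on the array labelled G2KO WT. The part of shared dim signal in these counts was not tested.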

How the data were processed

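RNA from 4 MEF cultures was hybridised with Cy3 label to Agilent mouse arrays in a single colour. The study's methods describe dye swaps for the G2KO comparison, but the files used here hold 1 colour. The authors deposited the signal intensity of each spot, corrected for background and spatial trends by Feature Extraction, of version 10.7.3.1 per the file headers and 10.5.1.1 in the submitters' processing notes, and not scaled between arrays. From these, log2 intensity was set relative to the array's 75th percentile over 43020 non-control spots, outlier spots (107 to 140 per array) were left out and spots of a probe were averaged. No spot was saturated. A gene was represented by its probe with the highest mean log2 signal. Of 3855 genes with several measured probes, 100 had log2 ratios more than 2 apart, and among the genes named, probes differed by more than that for Adamts2, B3gnt5, Ccdc85a, Cdkn2a, Col8a2, Il1rl1, Nup210, Pdpn, Plagl1, Six2, Sned1 and Snrpn, with Plagl1 having a probe below 0. The deposited value table equals the scanner signals at every spot of both wild-type arrays (within 0.0001 on the log2 scale), with column medians of 122.8 for DKO WT and 91.2 for the array labelled G2KO WT. Python 3.11.15 with pandas 2.3.3 and limma 3.58.1 in R 4.3.3 (normexp only) were used, and the ratios were tested on simulated data. Gene names and mm9 positions are those of the files, and promoters those of RefSeq. Named genes were the 15 with the largest ratio and the 15 with the largest bound each way, the leading members of each list, Ccng1, Ccng2, the neighbours of Cdkn2a and runs of neighbours, and some genes that this rule takes are not reported here. Members and lists were chosen with earlier results of these data known. The planned count of promoter letters over all divergent genes was void, since 57.1% of genes had a promoter sequence. Alternatives were other scalings, normexp, other filters and thresholds, the deposited value table, other rules for probes, and the exchange of labels.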

Additional observations from a re-analysis of the deposited data

Results flagged for a closer look

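The X and Y chromosomes were left out of the comparison, and both carried signal that differed between the wild-type arrays. Of 1095 probes there with a ratio, 93 differed at least 4-fold, 64 higher and 29 lower on DKO WT. Xist had a level of 1.13 on the array labelled G2KO WT and was dim on the remaining 3, with a log2 ratio of at most -6.79. Eif2s3y, a Y-linked translation factor gene, had levels of 1.96 on DKO WT and 1.82 on the DKO array and was dim on the array labelled G2KO WT, with a log2 ratio of at least 8.09. Ddx3y had levels of 1.23 on DKO WT, 1.32 on the array labelled G2KO and 0.875 on the DKO array, and was dim on the array labelled G2KO WT. Their part in the autosomal differences was not tested.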

How the results depend on the processing

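The number of probes past 4-fold, 1888, lay between 1529 and 2617 under the other scalings, the deposited table, no filter, X and Y kept, and counts of genes. It was 975 with normexp, 1248 with probes measured on both arrays, 5705 at 2-fold, 680 at 10-fold and 555 with the array labelled G2KO. The SD of 1.03 moved to 0.848 with normexp, 1.20 without a filter and 0.57 with the array labelled G2KO. The median log2 ratio of all genes was -0.26 with median scaling and 0.17 without scaling. Apart from the array labelled G2KO, no list median that was 1 or more from 0 (log2) changed direction under any alternative run. None of the 59 genes checked among those named for the largest ratios did so either. The sizes of their ratios were less stable. With normexp, 47 of the 59 moved beyond the tolerance used for these comparisons, and 21 did so without filter and floor. With that array in place, list medians became -0.43 for neuron markers, -1.28 for chemokines and -0.16 for prostaglandin genes, and the log2 ratio became -0.064 for Cdkn2a, 0.13 for En2, 1.35 for Aldh1a1, 0.78 for Kcnab1 and -0.22 for Pdpn. No paired analysis was possible because each group has 1 array. Ratios of dim genes are bounded by background, and 1 array a side limits the precision of every value.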
